A study of Rattus norvegicus with 70 samples.

Results

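Kidneys of male rats given a mixture of bisphenols (Mix) were compared with kidneys of male rats given bisphenol A (BPA) at the same total dose, and the kidney's own genes were described. The comparison rests on 6 libraries, 3 Mix and 3 BPA, of 70 libraries in the whole series, and 3 male kidney libraries of vehicle rats served as background. All rats were Sprague-Dawley, an outbred strain, and were 63 days old. Dams were dosed by mouth from gestation day 6 to lactation day 6. Those of the Mix group received BPA and bisphenol F at 160 mg/kg/day each and bisphenol S at 180 mg/kg/day, and those of the BPA group received BPA at 500 mg/kg/day. Litters were reduced to 3 pups of each sex on postnatal day 4. From postnatal day 7 the pups received their dam's treatment at a total of 250 mg/kg/day. How the pups' total was divided among the bisphenols of the mixture, and what the vehicle was, is not given in the sources used here. All 3 bisphenols hold a pair of phenol rings, which are joined by an isopropylidene bridge in BPA, a methylene bridge in bisphenol F and a sulfonyl bridge in bisphenol S. Mix rats therefore received less BPA as well as the other bisphenols, and these changes cannot be told apart. Litter and hour of collection are not labelled and cannot be told apart from treatment either.

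Of the 17048 rows of the count table, 1088 were set aside because their mean level was at least 20 CPM in the testes, where CPM is a count scaled to library size, and at least 20 times that in the female kidney. The other 15960 rows are called the kidney's own genes below, whichever organ they are best known from. A filter on low counts left 11000 rows to test, 10227 of the kidney's own and 773 set aside.

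Kidney cells carry a circadian clock. The activators BMAL1 (Arntl) and CLOCK or NPAS2 bind E-box sequences and drive the PER and CRY repressors, the nuclear receptors REV-ERB alpha and beta (Nr1d1 and Nr1d2) and the output factor DBP; the REV-ERBs in turn repress Arntl through ROR elements. In the kidney this loop is known to time the activity of transporters along the tubule. The proximal tubule reabsorbs glucose, amino acids and dicarboxylates and burns fatty acids, while fibroblasts between the tubules make the collagens and proteoglycans of the interstitium.

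The libraries differed in more than treatment. Total counts were 4910450 to 7518227 in Mix, 5760570 to 6519567 in BPA and 8524615 to 10218159 in vehicle kidneys. Ribosomal RNA rows took 20.2%, 1.42% and 6.04% of the counts in the Mix libraries, 37.2%, 16.4% and 36.9% in the BPA libraries and 1.71% to 3.50% in the vehicle libraries (exact permutation p = 0.2 for Mix against BPA, two-sided, where 0.1 is the smallest that 3 against 3 allow). Set-aside rows took 1.32% ± 0.335 of the counts in Mix and 0.359% ± 0.0692 in BPA libraries (SD, n = 3 each; exact permutation p = 0.1, two-sided), against 0.665% ± 0.0964 in vehicle libraries. Had all of these counts been testis RNA, it would have made up 2.51% to 4.51% of the Mix, 0.928% to 1.40% of the BPA and 1.27% to 1.81% of the vehicle libraries. Kidney markers were present in all 9 libraries: summed proximal tubule markers reached 25059.8 to 35712 CPM in Mix, 23786 to 26740.4 in BPA and 30692 to 32817 in vehicle kidneys, and Umod, the uromodulin of the thick ascending limb, had 1479, 1384 and 1517 CPM in Mix and 1683, 1876 and 2533 CPM in BPA kidneys. Of 9 adrenal cortex markers only 1, Cyp11b1, was without a count in every one of these libraries. Others were counted in each library: Cyp21a1 ranged from 2.99 to 7.87 CPM, Hsd3b1 from 2.43 to 7.70 and Fdx1 from 48.4 to 121.5. Whether the kidney samples held adrenal RNA was not tested.

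Mix and BPA kidneys differed in 97 of the kidney's own genes (0.948% of the 10227 tested), 58 higher in Mix (0.567%) and 39 lower (0.381%). A gene counts as different where its adjusted p was below 0.05 in edgeR's quasi-likelihood test, fitted to the 9 male kidney libraries with the 3 treatments. The Benjamini-Hochberg adjustment ran over all 11000 rows, of which 322 passed (2.93%). Differences below are log2 fold changes of Mix over BPA ± SE, and adjusted p values are from this test unless another fit is named. Levels are CPM with TMM scaling, listed in the order of replicates 1, 2 and 3. The log2 sizes ran from 0.62 to 7.46 among the higher genes, with a median of 1.05, and from -0.65 to -8.41 among the lower ones, with a median of -1.19, against a median of -0.02 over all of the kidney's own genes. In 96 of the 97, all but Acsf2, the Mix and BPA ranges did not overlap, as in 14.4% of all of the kidney's own genes.

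The number of genes rested on the rows that were set aside and on single libraries. Of the set-aside rows 225 of 773 passed (29.1%), all higher in Mix, and they share the adjustment with the others. With those rows taken out before the fit, 8 of the 97 passed: Dbp, Nr1d1, Nr1d2 and Spp2 among the higher and Gal, Col3a1, Fam43a and RGD1564664 among the lower genes. The count was 446 without Mix replicate 1, 40 without Mix replicate 2, 102 without Mix replicate 3, 51 without BPA replicate 1 and 6 without either BPA replicate 2 or BPA replicate 3. Leaving out a vehicle library gave 45 (replicate 1), 56 (replicate 2) and 39 (replicate 3). Without BPA replicates 1 and 3 together, which had the highest ribosomal RNA shares, 3 genes passed, Nr1d1, Dbp and Gal, and with that share as a covariate 31 passed, of which 11 were among the 97. The 11 were Nr1d1 and Dbp among the higher and Arntl, Gal, Lpl, C1qc, Ints7, Emp1, Defb1, Pnrc1 and RGD1564664 among the lower genes. With the replicate number as a block 60 higher and 66 lower genes passed, among them 82 of the 97. All 97 kept their direction in every fit that tested them, and at an unadjusted p below 0.05 there were 1193 of the kidney's own genes. A count out of 9 beside a gene below is therefore the number of leave-one-out fits in which it passed.

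**Figure D1:**
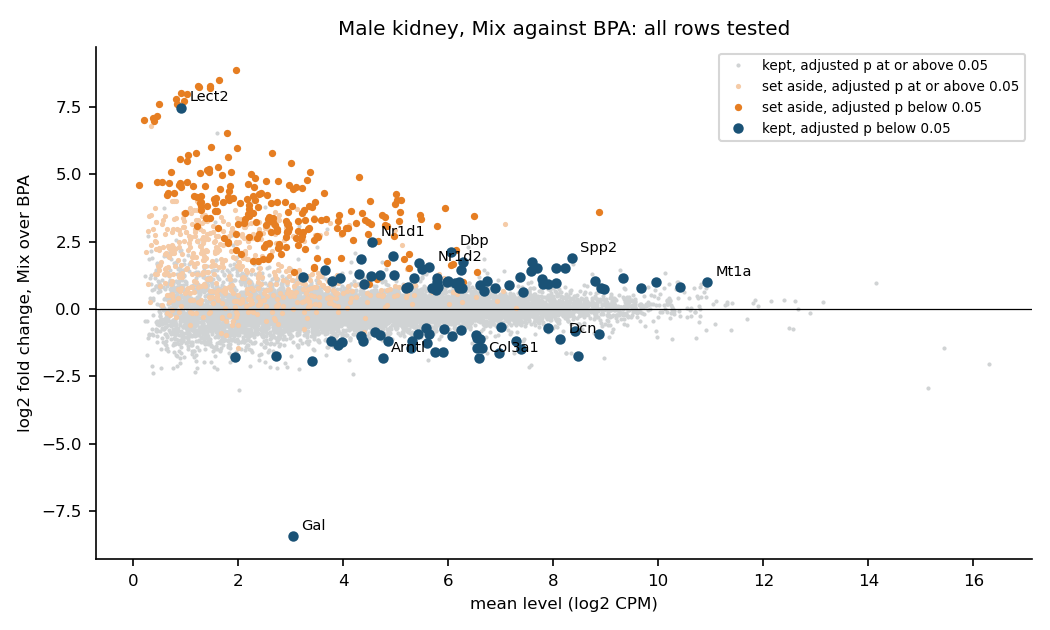
Log2 fold change of Mix over BPA (vertical axis) against mean level in log2 CPM (horizontal axis) for all 11000 rows tested in the male kidney; dark blue points are the 97 own genes and orange points the 225 set-aside rows with an adjusted p below 0.05. The orange points lie above 0, whereas the dark blue points lie on both sides, with Gal lowest and Lect2 highest.

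The clearest difference between Mix and BPA kidneys was in the circadian clock: 3 of the 12 clock genes tested were higher in Mix, 1 was lower and 8 did not pass. Over all of the kidney's own genes tested 0.567% were higher and 0.381% lower, and the list counts below stand beside these shares. Dbp, a transcription factor that carries the clock's output to metabolic genes, had 132, 158 and 122 CPM in Mix, against 31.3, 33.9 and 28.9 CPM in BPA and 30.4, 26.9 and 33.1 CPM in vehicle kidneys. The lowest Mix kidney had more than 3 times the level of the highest BPA kidney, and the BPA and vehicle ranges overlapped. On the log2 scale the difference was 2.13 ± 0.17 (adjusted p = 0.000501), and it passed in 9 of 9 leave-one-out fits.

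Among the nuclear receptors, Nr1d1 had 42.7, 60.2 and 46.1 CPM in Mix, against 6.18, 9.34 and 10.92 CPM in BPA and 9.58, 10.7 and 13.1 CPM in vehicle kidneys. The difference came to 2.49 ± 0.26 (adjusted p = 0.00142, 9 of 9). Its paralog Nr1d2 had 55.3, 98.7 and 87.8 CPM in Mix, against 24.9, 26.7 and 30.5 CPM in BPA and 41.0, 44.3 and 36.5 CPM in vehicle kidneys. The difference was 1.56 ± 0.22 (adjusted p = 0.00833, 8 of 9). For both genes every Mix kidney lay above all others, and for Nr1d2 the BPA kidneys lay below vehicle as well. The Nr1d2 call ended without BPA replicate 2 (adjusted p = 0.0623) and with the ribosomal RNA share as a covariate (adjusted p = 0.149; 1.15 on the log2 scale).

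On the activator side, Arntl had 5.07, 11.8 and 13.1 CPM in Mix, against 41.3, 33.9 and 31.7 CPM in BPA and 31.8, 39.4 and 31.3 CPM in vehicle kidneys. The Mix kidneys lay below all others and the other groups overlapped, the reverse of the order seen for Dbp and Nr1d1. The log2 fold change was -1.81 ± 0.30 (adjusted p = 0.0117, 7 of 9), and it did not pass without BPA replicate 2 (adjusted p = 0.0649) or BPA replicate 3 (adjusted p = 0.0503) or with the set-aside rows taken out (adjusted p = 0.0588). Its partners Clock (-0.29 ± 0.23, adjusted p = 0.632) and Npas2 (-0.28 ± 0.48, adjusted p = 0.850) had overlapping ranges.

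Of the repressors, Cry1 had 1.06, 4.68 and 7.28 CPM in Mix, against 11.9, 10.8 and 15.6 CPM in BPA and 14.0, 12.1 and 18.1 CPM in vehicle kidneys, and its ranges did not overlap between Mix and BPA (-1.51 ± 0.47, adjusted p = 0.130). Per2 (-0.21 ± 0.34), Cry2 (0.43 ± 0.24) and Bhlhe40, which encodes the repressor DEC1 (-0.32 ± 0.55), had adjusted p values of 0.830, 0.448 and 0.845. Nfil3, a repressor that competes with DBP for D-box sequences, had 2.75, 5.42 and 4.95 CPM in Mix and 6.18, 9.67 and 9.10 CPM in BPA kidneys (-0.91 ± 0.33, adjusted p = 0.200). Tef, a relative of Dbp, had 53.4, 29.9 and 37.0 CPM in Mix and 22.5, 25.4 and 31.5 CPM in BPA kidneys (0.59 ± 0.24, adjusted p = 0.261). Cry1 passed by DESeq2 (adjusted p = 0.0298), whereas the other 7 of the 8 passed in none of the 20 alternative fits.

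**Figure D2:**
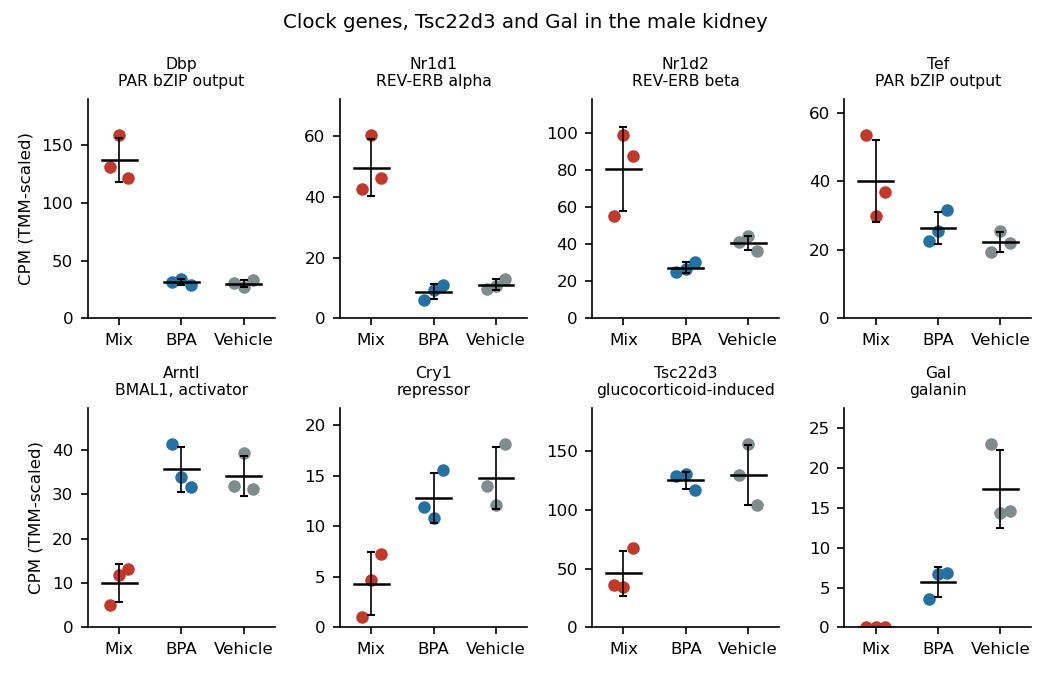
CPM with TMM scaling (vertical axes, from 0) of 6 clock genes, Tsc22d3 and Gal in each male kidney library, with Mix, BPA and vehicle from left to right; points are libraries, horizontal lines are group means and bars are SD (n = 3). Dbp, Nr1d1 and Nr1d2 are highest in Mix, Arntl, Cry1, Tsc22d3 and Gal are lowest in Mix, and Tef overlaps between Mix and BPA.

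RefSeq promoters, 250 bases before to 50 bases after the annotated start in build GRCr8, were found for 11 of the 12 clock genes tested. They were searched on both strands for the E-box CACGTG, the D-box TTATGTAA or TTACGTAA and the ROR element TAGGTCA. The Arntl promoter, listed by RefSeq as Bmal1 (chr1:176766078-176766377, plus strand), holds a ROR element, in capitals, from 16 to 10 bases before the start.
Arntl: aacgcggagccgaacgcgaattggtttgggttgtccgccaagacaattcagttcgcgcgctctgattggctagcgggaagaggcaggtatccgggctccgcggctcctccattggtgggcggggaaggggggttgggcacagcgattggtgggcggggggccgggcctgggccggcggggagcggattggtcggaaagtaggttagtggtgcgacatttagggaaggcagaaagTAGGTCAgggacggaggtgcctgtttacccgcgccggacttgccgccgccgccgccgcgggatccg
Of all 33469 promoters in the table, 2.63% hold this ROR element, 6.42% the E-box and 1.01% a D-box. The second of 2 promoters listed for Nr1d1 (chr10:84229405-84229704, minus strand) holds an E-box, as do those of Tef (chr7:115206577-115206876, plus strand) and Bhlhe40 (chr4:143174200-143174499, plus strand), and that of Per2 (chr9:99496944-99497243, minus strand) holds a D-box. Each element is shown in capitals with 12 bases on either side.
Nr1d1: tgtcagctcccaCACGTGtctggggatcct
Tef: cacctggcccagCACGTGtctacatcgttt
Bhlhe40: agcgttgtccaaCACGTGagactcatgtga
Per2: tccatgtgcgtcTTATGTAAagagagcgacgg
No searched element was found in the promoters of Dbp, Nr1d2, Clock, Npas2, Cry2 or Nfil3 or in the first of Nr1d1, and no match overlapped another. A match is a string of letters only and binding was not measured.

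The same rat codes recur in the labels of other organs, so the clock genes were also read there, in the same animals and not in new replicates. In the male liver Nr1d2 had 46.7, 25.6 and 41.1 CPM in Mix and 12.9, 7.44 and 8.41 CPM in BPA rats (1.98 ± 0.31, adjusted p = 0.0671). Nr1d1 there had 21.6, 18.3 and 20.3 CPM in Mix and 4.56, 0.610 and 4.35 CPM in BPA rats (2.67 ± 0.49, adjusted p = 0.0819), and Arntl had 9.68, 15.3 and 19.4 CPM in Mix and 34.2, 29.9 and 27.999 CPM in BPA rats (-1.05 ± 0.24, adjusted p = 0.202). In these 3 genes the Mix and BPA ranges did not overlap, whereas Dbp had 19.4, 14.0 and 22.7 CPM in Mix and 15.8, 7.68 and 12.3 CPM in BPA rats (0.65 ± 0.30, adjusted p = 0.802) and overlapped. No adjusted p value was below 0.05, in a comparison in which 1 of 9669 liver rows passed (0.0103%). In the thyroid Dbp had 108, 125.7 and 93.4 CPM in Mix and 32.8, 51.8 and 28.2 CPM in BPA rats (1.54 ± 0.29, adjusted p = 0.304), and no row of 11119 passed. Thyroid Nr1d1 had 26.8, 34.4 and 36.6 CPM in Mix and 7.28, 30.0 and 10.3 CPM in BPA rats (1.04 ± 0.50, adjusted p = 0.393), and 1 BPA thyroid lay among the Mix thyroids. Thyroid Nr1d2 (1.09 ± 0.30) and Arntl (-1.06 ± 0.30) had ranges without overlap. In the testes the differences were 0.09 ± 0.22 for Dbp, 0.72 ± 0.27 for Nr1d1, 0.18 ± 0.14 for Nr1d2 and 0.64 ± 0.44 for Arntl, none of which passed in a comparison with 86 rows called (0.775%). Cry1 was lower in Mix without overlap in liver (-1.39 ± 0.32, adjusted p = 0.204) and thyroid (-1.82 ± 0.40, adjusted p = 0.304), but overlapped in testes (-0.25 ± 0.18). Clock was higher in Mix without overlap in thyroid (0.39 ± 0.19, adjusted p = 0.386) and testes (0.77 ± 0.17, adjusted p = 0.0610), but overlapped in liver (-0.04 ± 0.24). The other clock genes in these organs are not reported here.

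The pattern of Dbp over the 9 male kidney libraries was most like that of Smim22, a small membrane protein gene (Pearson r = 0.982 on log2 CPM), Nr1d1 (0.966), Bysl, a ribosome biogenesis gene (0.942), Hes6, a transcription factor of the HES family (0.926), and Sec22a (0.920). These values describe 9 libraries that share the treatment groups. Hes6 had 161, 161 and 153 CPM in Mix, against 95.4, 80.3 and 103 CPM in BPA and 97.6, 102 and 109.7 CPM in vehicle kidneys (0.77 ± 0.15, adjusted p = 0.0212, 7 of 9). Smim22 (0.35 ± 0.14), Bysl (0.31 ± 0.26) and Sec22a (0.67 ± 0.18) did not pass (adjusted p = 0.223, 0.643 and 0.0691).

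Gal, the neuropeptide galanin, had no count in any Mix kidney, against 16, 41 and 34 counts in the BPA kidneys, or 3.53, 6.72 and 6.88 CPM, and 22.98, 14.4 and 14.7 CPM in vehicle kidneys. Set against the 3 counts that a count of 0 over the group allows, it was at least 38.4-fold lower in Mix than in BPA kidneys, and this limit covers counting error only. The adjusted p was 0.00288, the call held in 9 of 9 leave-one-out fits, and Gal, Dbp and Nr1d1 were the only named genes called in all 20 alternative fits. Against vehicle Gal was also lower in Mix (adjusted p = 0.00119), while BPA against vehicle gave -1.59 (adjusted p = 0.0860). In the female kidney its levels were 7.30, 8.64 and 0 CPM in Mix, 7.73 and 8.50 CPM in BPA and 3.44 and 0.155 CPM in vehicle rats, so that zero or near-zero libraries also occurred there.

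Tsc22d3, the glucocorticoid-induced leucine zipper GILZ, had 35.9, 34.2 and 67.7 CPM in Mix, against 128.2, 130.3 and 117 CPM in BPA and 129.5, 155 and 104 CPM in vehicle kidneys. It was lower in Mix by -1.44 ± 0.26 (adjusted p = 0.0150, 7 of 9), and the BPA kidneys lay within the vehicle range. Of 12 glucocorticoid-induced genes tested, Tsc22d3 was lower, the metallothionein Mt1a was higher and 10 did not pass. The list had 4 estimates above 0 and 8 below, from -2.16 to 1.04, and DESeq2 called 2 higher and 2 lower. Its summed level, which includes Mt1a, was 4579 to 6118 CPM in Mix and 3232 to 3584 CPM in BPA kidneys, without overlap. Fkbp5, an inhibitor of receptor signalling, had -0.98 ± 0.27 (adjusted p = 0.0766), and the transcription factor Zbtb16 -2.16 ± 0.75 (adjusted p = 0.177). Mt1a, which binds zinc and copper, had 2726, 2953 and 2137 CPM in Mix, against 1409, 1154 and 1378 CPM in BPA and 2034, 1836 and 1892 CPM in vehicle kidneys (0.99 ± 0.19, adjusted p = 0.0191, 7 of 9), so that the Mix kidneys lay above and the BPA kidneys below vehicle. In the liver of the same rats Tsc22d3 had 14.7, 18.2 and 15.8 CPM in Mix and 40.7, 51.2 and 39.3 CPM in BPA rats (-1.43 ± 0.27, adjusted p = 0.0819). Mt1a there had 1865, 691 and 2228 CPM in Mix and 5538, 3465 and 3944 CPM in BPA rats (-1.44 ± 0.37, adjusted p = 0.311), lower in every Mix liver than in every BPA liver and so opposite in sign to the kidney. Vehicle livers had 1573, 3203 and 2017 CPM of Mt1a, below every BPA liver and overlapping the Mix livers. In the thyroid the estimates were -1.13 ± 0.34 for Mt1a (adjusted p = 0.304) and 0.01 ± 0.38 for Tsc22d3 (adjusted p = 0.993).

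The Mix kidneys were on 1 side of all BPA and vehicle kidneys, and vehicle did not fall between them and the BPA kidneys without overlap, in 6 of the 58 higher and 9 of the 39 lower genes. The higher ones were Nr1d1, Dbp, Hes6, Gpha2, the hormone subunit of thyrostimulin, Car7, a carbonic anhydrase, and Lpin2, a phosphatidate phosphatase. Gpha2 had 25.1, 38.0 and 112.8 CPM in Mix and 17.2, 14.8 and 12.9 CPM in BPA kidneys (1.97 ± 0.46, adjusted p = 0.0426, 2 of 9), and replicate 3 was far above the other Mix kidneys. Without it the Gpha2 estimate was 1.08 (adjusted p = 0.0684). Car7 (1.26 ± 0.25) passed in 4 and Lpin2 (0.70 ± 0.17) in 1 of the 9 fits, and the Lpin2 call ended with the replicate block (adjusted p = 0.0682). The lower ones were Arntl, Gal, Tsc22d3, Banf1, which binds chromatin at the nuclear envelope, Ints7, a subunit of the Integrator complex, Foxp2, Amotl2, Wdr33 and RGD1564664. RGD1564664 passed in 8 of the 9 fits, Foxp2 and Amotl2 in 2 each and Wdr33 in 1, and the Wdr33 call ended with the replicate block (adjusted p = 0.0734). Banf1 had 36.3, 92.8 and 43.7 CPM in Mix and 175, 158 and 209 CPM in BPA kidneys. On the log2 scale the difference was -1.64 ± 0.34 (adjusted p = 0.0265, 6 of 9). Ints7 was at 5.28, 10.6 and 7.86 CPM in Mix and 15.5, 24.4 and 20.4 CPM in BPA kidneys. The difference came to -1.33 ± 0.31 (adjusted p = 0.0448, 2 of 9).

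Far more often the BPA kidneys stood outside the other groups, in 40 of the 58 higher and 23 of the 39 lower genes. The same imbalance held over all of the kidney's own genes, with BPA apart in 860 (8.41%) and Mix alone apart in 221 (2.16%). Because the 97 were selected for a difference between Mix and BPA, larger shares among them are not a separate result. In 11 higher and 7 lower genes vehicle lay between Mix and BPA (0.440% of all). The mean of the vehicle kidneys was nearer to Mix than to BPA in 49 of 58 higher and 27 of 39 lower genes, against 63.4% of all of the kidney's own genes. In fits to the same libraries 3 of the kidney's own genes passed for Mix against vehicle (0.0293%) and 8 for BPA against vehicle (0.0782%), and these comparisons share their vehicle libraries. BPA replicates 1 and 3 had higher ribosomal RNA shares than any Mix or vehicle kidney, and BPA replicate 2 lay below Mix replicate 1. Beside the fits given above, one without the ribosomal RNA rows called 87 genes, all of them among the 97.

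**Figure D3:**
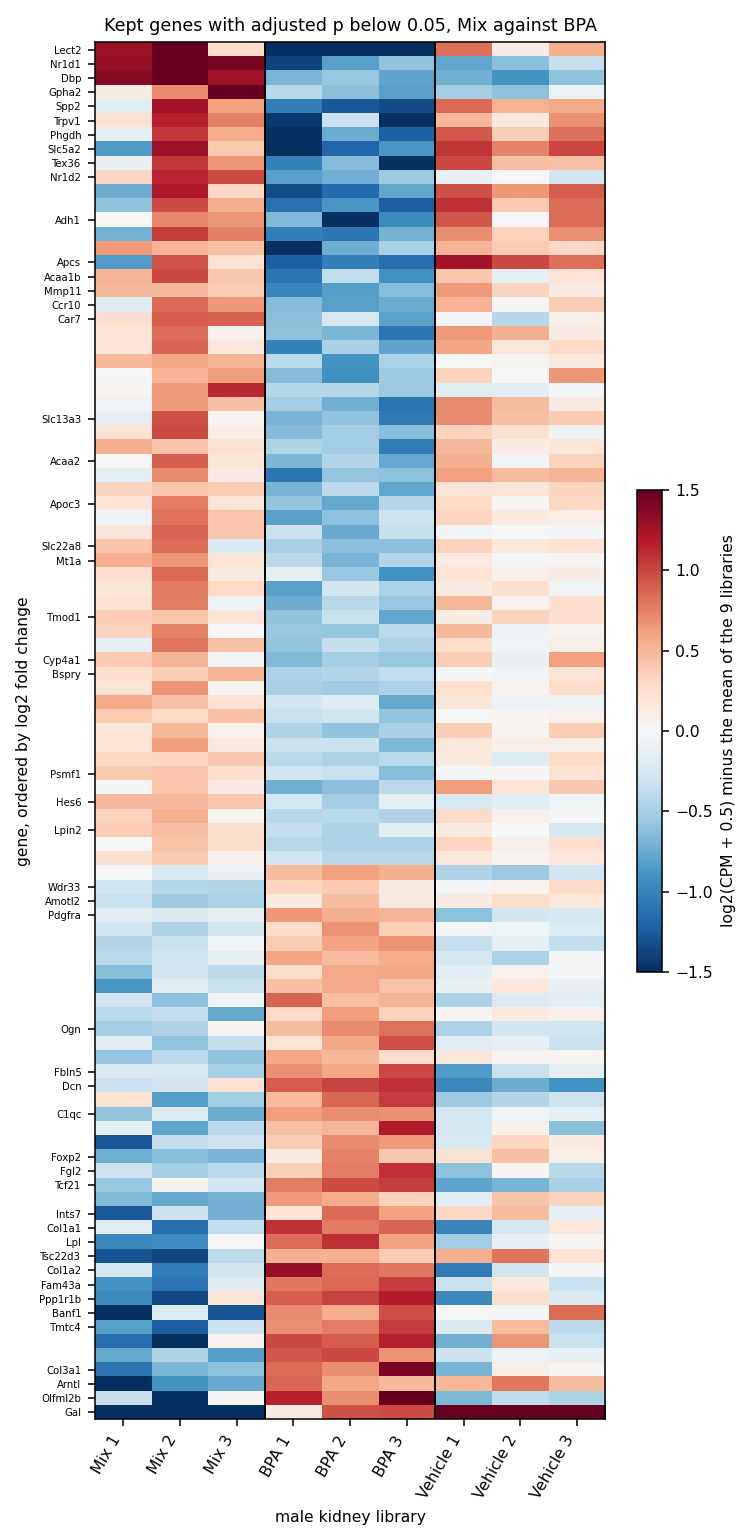
Heat map of the 97 own genes with an adjusted p below 0.05, ordered from the highest log2 fold change to the lowest, with some of those described in the text labelled; columns are the 3 Mix, 3 BPA and 3 vehicle libraries and colour is log2(CPM + 0.5) minus the gene's mean over the 9 libraries, capped at 1.5 in both directions. In most rows the BPA columns take the opposite colour to both other groups, and at Nr1d1, Dbp and Arntl the Mix columns do.

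Genes of the interstitial matrix were lower in Mix than in BPA kidneys. Of 18 fibrillar collagen and interstitial matrix genes tested 6 were lower, none was higher and 12 did not pass. All 18 estimates were below 0, with a median of -0.92 against -0.02 over all of the kidney's own genes. With vehicle as the reference, the list's median log2 fold change was -0.009 for Mix and 0.98 for BPA. Its summed level was at least 3105 CPM in every BPA kidney and at most 2243 CPM in any other kidney. The sums of the Mix and vehicle groups overlapped. Col3a1, a fibrillar collagen, had 38.6, 51.0 and 53.8 CPM in Mix, against 147, 134 and 222 CPM in BPA and 50.5, 87.8 and 84.3 CPM in vehicle kidneys. The difference was -1.81 ± 0.26 (adjusted p = 0.00833, 9 of 9). Col1a2 had 121, 69.1 and 119.6 CPM in Mix, against 361, 259 and 251 CPM in BPA and 70.1, 120.3 and 143 CPM in vehicle kidneys. The log2 fold change was -1.49 ± 0.29 (adjusted p = 0.0211, 6 of 9). In both genes every BPA kidney lay above every other kidney, and the Mix and vehicle kidneys overlapped.

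Col1a1, the partner chain of Col1a2, had 73.5, 37.3 and 63.5 CPM in Mix and 176, 141 and 151 CPM in BPA kidneys. On the log2 scale the difference was -1.43 ± 0.30 (adjusted p = 0.0274, 4 of 9). The proteoglycan decorin, Dcn, had 193, 197 and 284 CPM in Mix, against 455, 487 and 517 CPM in BPA and 124, 144 and 128.3 CPM in vehicle kidneys (-1.11 ± 0.18, adjusted p = 0.0115, 7 of 9), with the Mix kidneys between the other groups. Ogn, another small proteoglycan (-0.96 ± 0.19), and Fbln5, which organises elastic fibres (-1.08 ± 0.20), were lower with adjusted p values of 0.0210 and 0.0193 (6 of 9 each). Fibronectin, Fn1, had -1.26 ± 0.38 (adjusted p = 0.117) and Loxl1, a crosslinking enzyme, -0.89 ± 0.24 (adjusted p = 0.0771). DESeq2 called 10 of the 18, all lower, and with the ribosomal RNA share as a covariate none of the 6 passed. The estimates with that covariate were -1.74 for Col3a1 (adjusted p = 0.0708), -1.23 for Dcn (adjusted p = 0.0503), -1.11 for Ogn, -0.89 for Fbln5, -1.13 for Col1a2 and -1.01 for Col1a1, so that those of Dcn and Ogn were farther from 0 than without it.

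Stromal fibroblast markers gave 2 lower genes of 10 tested, with a median of -0.63, and DESeq2 called 2 lower and 1 higher. Their summed level ran the other way, at 14603 to 31956 CPM in Mix and 10757 to 13713 CPM in BPA kidneys without overlap. Most of that sum was Gpx3, the plasma glutathione peroxidase, which had 13972, 31458 and 20882 CPM in Mix and 9995, 12835 and 10768 CPM in BPA kidneys (0.98 ± 0.30, adjusted p = 0.125) and which proximal tubule cells are also known to make. Tcf21, a transcription factor of renal stroma, had 9.08, 14.3 and 11.2 CPM in Mix, against 23.8, 27.5 and 28.7 CPM in BPA and 7.73, 8.32 and 9.66 CPM in vehicle kidneys. The difference came to -1.20 ± 0.24 (adjusted p = 0.0238, 6 of 9). Pdgfra, a growth factor receptor of fibroblasts, had 50.7, 49.5 and 52.0 CPM in Mix and 90.5, 84.1 and 81.9 CPM in BPA kidneys. The difference was -0.75 ± 0.16 (adjusted p = 0.0276, 3 of 9). The 3 Mix values of Pdgfra lay within 3 CPM of each other. In whole tissue, fewer cells of a type and less RNA per cell cannot be told apart. Smooth muscle, pericyte and renin cell genes (7 tested, median -0.31), endothelial genes (12, -0.18) and basement membrane genes (8, -0.27) had no gene that passed.

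Markers of cells around or within the vessels were read beside these. Lpl, lipoprotein lipase, was the 1 of 5 adipocyte genes that was lower, at 17.5, 18.0 and 34.6 CPM in Mix, against 62.2, 74.9 and 52.8 CPM in BPA and 24.0, 31.8 and 35.01 CPM in vehicle kidneys. The log2 fold change was -1.43 ± 0.28 (adjusted p = 0.0212, 6 of 9). The adipocyte genes summed to 93.1 to 130.1 CPM in Mix and 183 to 202.8 CPM in BPA kidneys, without overlap; Fabp4, the fatty acid binding protein of adipocytes, had -1.09 ± 0.47 (adjusted p = 0.286) and Adipoq, adiponectin, -0.32 ± 0.53 (adjusted p = 0.837). Erythroid genes summed to 9167 to 13620.4 CPM in Mix and 12756 to 24615 CPM in BPA kidneys; 0 of 8 passed (5 had an unadjusted p below 0.05 and DESeq2 called 1, all lower in Mix), with a median of -0.74. C1qc, a complement chain of macrophages, was lower at 17.7, 23.4 and 16.01 CPM in Mix and 42.2, 44.3 and 43.7 CPM in BPA kidneys (-1.18 ± 0.20, adjusted p = 0.0119, 7 of 9), but C1qa (-0.19 ± 0.24, adjusted p = 0.779) and C1qb (-0.32 ± 0.26, adjusted p = 0.640) did not pass. The part of these cells, and of the ribosomal RNA shares, in the matrix result was not tested further.

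**Figure D4:**
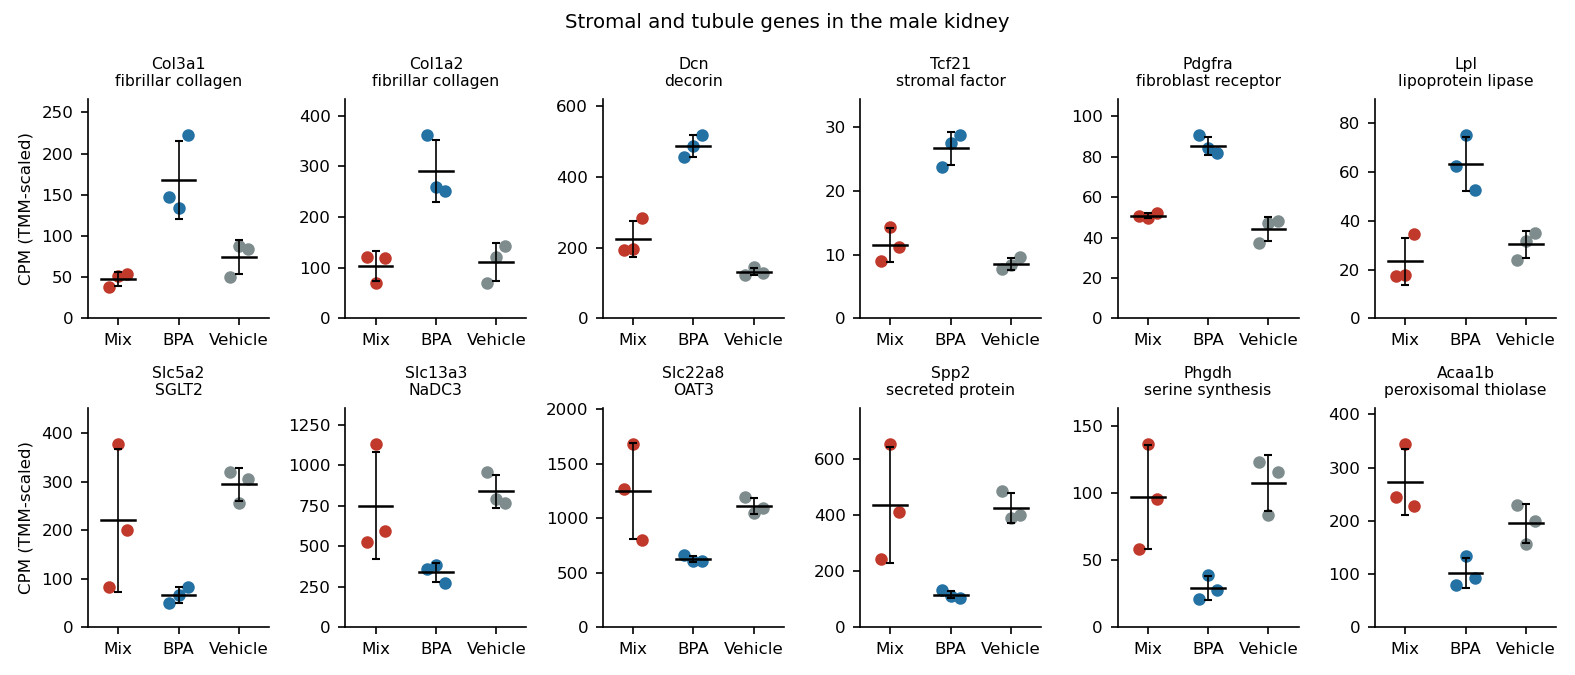
CPM with TMM scaling (vertical axes, from 0) of 6 stromal and vascular genes in the upper row and 6 tubule and metabolic genes in the lower row for each male kidney library, with Mix, BPA and vehicle from left to right; points are libraries, horizontal lines are group means and bars are SD (n = 3). BPA kidneys are highest in the upper row and lowest in the lower row, and Mix replicate 2 is the highest Mix kidney for all 6 genes of the lower row.

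Transporters of the proximal tubule were among the genes higher in Mix than in BPA kidneys. Of 24 proximal tubule genes tested 3 were higher, none was lower and 21 did not pass, against 0.567% higher and 0.381% lower over all of the kidney's own genes. The median was 0.33, against -0.02 over all of them. Against vehicle the median of the 24 was -0.16 in Mix and -0.61 in BPA kidneys. Slc5a2, the glucose transporter SGLT2, had 84.3, 377 and 201.1 CPM in Mix, against 50.5, 66.5 and 83.1 CPM in BPA and 321, 257 and 306 CPM in vehicle kidneys. Mix differed from BPA by 1.73 ± 0.41 (adjusted p = 0.0467, 1 of 9). The Mix kidneys were spread more than 4-fold, and replicate 1 lay just above the highest BPA kidney. Slc13a3, a sodium-dicarboxylate cotransporter, had 529, 1129 and 593 CPM in Mix and 358, 383 and 276 CPM in BPA kidneys. The difference came to 1.15 ± 0.27 (adjusted p = 0.0454, 2 of 9). Slc22a8, the organic anion transporter OAT3, had 1265, 1676 and 800.4 CPM in Mix and 664, 611 and 609 CPM in BPA kidneys. The difference was 0.99 ± 0.23 (adjusted p = 0.0464, 2 of 9).

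These 3 calls passed in 1 or 2 of the 9 leave-one-out fits, and with the ribosomal RNA share as a covariate the estimates were 0.57 for Slc5a2 (adjusted p = 0.809), 0.52 for Slc13a3 (adjusted p = 0.640) and 0.94 for Slc22a8 (adjusted p = 0.320). Without Mix replicate 2 they were 1.10 for Slc5a2 and 0.73 for Slc13a3. Further members with estimates above 0 were Slc7a7, an amino acid exchanger (1.66 ± 0.43, adjusted p = 0.0649), Slc22a6, the transporter OAT1 (0.93 ± 0.24, adjusted p = 0.0602), and Slc34a1, the sodium-phosphate cotransporter (0.94 ± 0.24, adjusted p = 0.0677). Megalin, Lrp2 (-0.09 ± 0.23, adjusted p = 0.908), and the transporter Slc7a13 (-0.56 ± 0.24, adjusted p = 0.271) did not share the direction. The other segments gave no gene that passed: collecting duct genes (14 tested) had a median of 0.31, thick ascending limb and distal convoluted tubule genes (11) -0.48 and podocyte genes (9) 0.06.

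Genes of fatty acid oxidation that respond to PPAR alpha gave 2 higher of 26 tested and none lower, with a median of 0.22. Against vehicle their median was -0.008 in Mix and -0.23 in BPA kidneys. Acaa2, the last enzyme of mitochondrial beta-oxidation, had 413, 771 and 472 CPM in Mix and 256, 306 and 244 CPM in BPA kidneys. The log2 fold change was 1.04 ± 0.24 (adjusted p = 0.0450, 1 of 9). Cyp4a1, an omega-hydroxylase of fatty acids that belongs to a family of similar sequences, had 178, 192 and 132 CPM in Mix and 85.2, 94.7 and 90.6 CPM in BPA kidneys (0.89 ± 0.21, adjusted p = 0.0450, 3 of 9; adjusted p = 0.0559 with the replicate block). Acaa1b, the peroxisomal thiolase, stood outside that list and had 246, 344 and 228 CPM in Mix and 80.6, 134 and 92.2 CPM in BPA kidneys. Mix differed from BPA by 1.41 ± 0.24 (adjusted p = 0.0119, 8 of 9). For all 3 genes the BPA kidneys were the lowest of the 3 groups. With the ribosomal RNA share as a covariate none of the 3 genes passed. The estimates were then 0.50 for Acaa2 (adjusted p = 0.614), 0.86 for Cyp4a1 (adjusted p = 0.281) and 0.92 for Acaa1b (adjusted p = 0.194).

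Phgdh, the first enzyme of serine synthesis, was the 1 of 18 ER stress and amino acid response genes that passed. It had 58.5, 136 and 95.9 CPM in Mix, against 20.97, 38.7 and 27.5 CPM in BPA and 123, 83.8 and 115 CPM in vehicle kidneys. The difference came to 1.73 ± 0.31 (adjusted p = 0.0156, 7 of 9). Spp2, a secreted phosphoprotein, had 242, 650.5 and 412 CPM in Mix, against 132, 111.8 and 106 CPM in BPA and 486, 389.5 and 401 CPM in vehicle kidneys. The difference was 1.90 ± 0.29 (adjusted p = 0.0109, 7 of 9). Both genes were lower in BPA than in all other kidneys, and the Mix and vehicle kidneys overlapped. Adh1, an alcohol dehydrogenase, had 259, 430.2 and 410.0 CPM in Mix and 164, 89.2 and 133 CPM in BPA kidneys. The log2 fold change was 1.51 ± 0.30 (adjusted p = 0.0212, 7 of 9). With the ribosomal RNA share as a covariate none of these genes passed. The estimates were then 0.78 for Phgdh (adjusted p = 0.383), 1.25 for Spp2 (adjusted p = 0.290) and 1.67 for Adh1 (adjusted p = 0.203).

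Genes best known from the liver were among the higher ones. Lect2, a protein secreted by hepatocytes, had 15, 36 and 9 counts in the Mix kidneys and none in the BPA kidneys, and vehicle kidneys had 2.16, 1.12 and 1.66 CPM. Against 3 counts over the BPA group it was at least 15.8-fold higher in Mix (adjusted p = 0.0202, 6 of 9); its mean in the vehicle liver was 267 CPM. Apoc3, an apolipoprotein at 11500.5 CPM in the vehicle liver, had 80.4, 119.5 and 80.0 CPM in Mix and 46.4, 40.8 and 51.8 CPM in BPA kidneys. The difference came to 1.01 ± 0.20 (adjusted p = 0.0212, 6 of 9). It was the only one of 11 hepatocyte markers to pass. Alb, the albumin transcript, had 254, 10.3 and 77.7 CPM in Mix and 56.5, 12.8 and 121 CPM in BPA kidneys, so that the groups overlapped (0.84 ± 0.98, adjusted p = 0.753). The summed hepatocyte markers were 222 to 612 CPM in Mix and 142 to 415 CPM in BPA kidneys, and their part in the Lect2 and Apoc3 results was not tested. Apcs, the serum amyloid P component, had 33.6, 117 and 71.0 CPM in Mix, against 25.6, 29.2 and 27.1 CPM in BPA and 145, 121 and 107 CPM in vehicle kidneys. The difference was 1.44 ± 0.34 (adjusted p = 0.0477, 1 of 9), and 0.94 without Mix replicate 2. With the ribosomal RNA share as a covariate the Apcs estimate was 0.42 (adjusted p = 0.809). Lect2 and Apoc3 did not pass in that fit either (adjusted p = 0.0900 and 0.236).

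The other higher genes with the largest differences were Trpv1, a heat-gated and capsaicin-gated channel (1.84 ± 0.38, adjusted p = 0.0265, 6 of 9), Mmp11, the matrix protease stromelysin-3 (1.29 ± 0.23, adjusted p = 0.0137, 7 of 9), Ccr10, a chemokine receptor (1.27 ± 0.28, adjusted p = 0.0324, 2 of 9), and Tex36 (1.72 ± 0.34, adjusted p = 0.0225, 5 of 9). Mmp11 was at 25.1, 25.2 and 23.1 CPM in Mix and 8.83, 9.83 and 11.3 CPM in BPA kidneys, the narrowest Mix spread of these. With the ribosomal RNA share as a covariate none of these higher genes passed. The estimates were then 0.76 for Trpv1, 1.34 for Mmp11, 0.81 for Ccr10 and 0.76 for Tex36. Of the other lower genes, Fam43a had 25.3, 21.8 and 41.5 CPM in Mix and 82.8, 85.7 and 97.9 CPM in BPA kidneys. The log2 fold change was -1.59 ± 0.25 (adjusted p = 0.0109, 7 of 9). Ppp1r1b, the phosphatase inhibitor DARPP-32, had 25.5, 19.1 and 57.3 CPM in Mix and 93.8, 101 and 114 CPM in BPA kidneys. Mix differed from BPA by -1.60 ± 0.38 (adjusted p = 0.0489, 2 of 9). Olfml2b (-1.91 ± 0.46, 2 of 9), Tmtc4 (-1.73 ± 0.41, 1 of 9) and Fgl2, a fibrinogen-like protein (-1.20 ± 0.24, 6 of 9), had adjusted p values of 0.0497, 0.0466 and 0.0212, and the Tmtc4 call ended with the replicate block (adjusted p = 0.0534). In Ppp1r1b and Olfml2b the Mix kidneys overlapped vehicle and lay below every BPA kidney.

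The boundary of the set-aside rule ran through genes that both organs express. Just inside it, Tsga10ip had 198 CPM in the testes and 8.55 CPM in the female kidney, and just outside it Tmod1, an actin-capping protein, had 319.6 and 17.0 CPM. The testis RNA estimated above would account for at least 0.5 of the Mix minus BPA difference in 2 of the 58 higher genes, Tmod1 and Psmf1, and for at least 20% in 5, with Bspry, Tex36 and LOC499781. The calls of Tmod1, Psmf1, Bspry and LOC499781 passed in 1, 3, 2 and 3 of the 9 leave-one-out fits. When the estimated testis part was subtracted, the log2 ratio of the group means was 0.92 before and 0.60 after for Tmod1, 0.77 before and 0.49 after for Psmf1, an inhibitor of the proteasome, and 0.82 before and 0.61 after for Bspry. For Tex36, named for its expression in testis, it was 1.72 before and 1.81 after, and for Dbp 2.13 before and 2.13 after. The germ cell markers themselves, all 22 that were tested, fell among the set-aside rows and summed to 1641 to 3441 CPM in Mix and 87.4 to 474 CPM in BPA kidneys.

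Many groups of genes that bisphenols or kidney injury might touch gave no call by edgeR. In 21 of the lists, which together held 307 genes tested, edgeR called none, 48 were at an unadjusted p below 0.05 and DESeq2 called 12. Over all of the kidney's own genes, 1193 of the 10227 tested were at that unadjusted level and DESeq2 called 292. These lists were not below those shares. Receptors that bind bisphenols and xenobiotics (8 tested) had a median of -0.11, xenobiotic metabolism enzymes (19) 0.01, NRF2 antioxidant genes (21) -0.05, cholesterol genes (20) 0.05 and tubule injury genes (18) -0.17. Immediate early genes (18) had a median of -0.22, heat shock genes (13) 0.18, interferon-induced and MHC genes (25) -0.05, cell cycle genes (11) -0.31 and nuclear-encoded subunits of oxidative phosphorylation (76) 0.08. Testis somatic, adrenal cortex and skeletal muscle markers had 2 genes tested each, and the mitochondrially encoded genes had no row in the table.

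**Figure D5:**
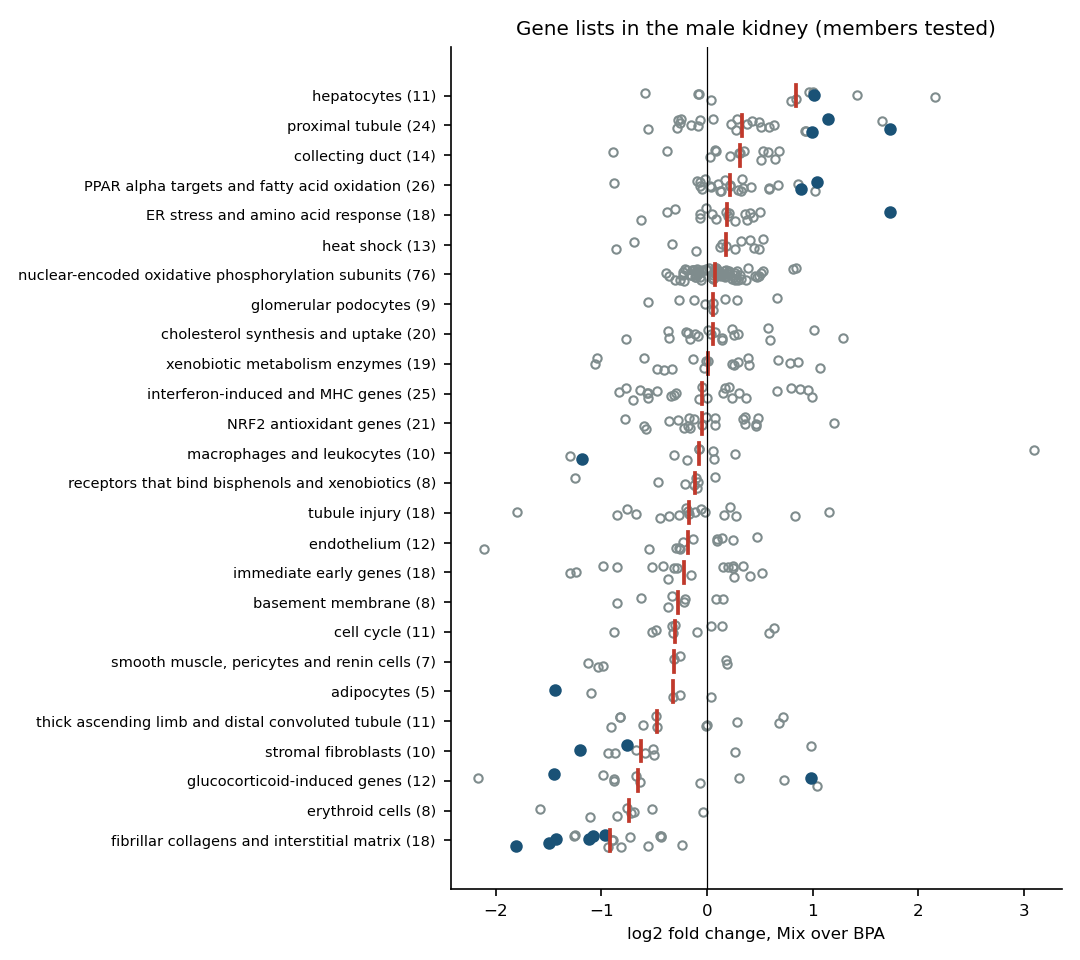
Log2 fold change of Mix over BPA (horizontal axis) for the members tested of each gene list with at least 5 of them, with the number in parentheses; filled points have an adjusted p below 0.05, open points do not, and red bars are medians. The interstitial matrix genes lie wholly below 0, while proximal tubule and fatty acid oxidation genes lie on both sides with their filled points above 0.

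In the female kidney, with 3 Mix, 2 BPA and 2 vehicle libraries, no gene passed for Mix against BPA among 10681 (779 had an unadjusted p below 0.05; DESeq2 called 8). Of the 58 genes higher in the male kidney 22 had the same sign in the female kidney, with a median of -0.10, and of the 39 lower ones 17 did, with a median of 0.06. Of all 10045 of the kidney's own genes tested there, 5225 had an estimate above 0 and 4820 below. Dbp had 37.1, 37.5 and 33.5 CPM in Mix, against 53.4 and 40.9 CPM in BPA and 25.3 and 29.2 CPM in vehicle females (-0.39 ± 0.19), so the order of Mix and BPA was the reverse of that in males. The male minus female difference in the Mix over BPA effect was 2.53 ± 0.25 for Dbp (adjusted p = 0.000177), the only gene of 11651 that passed this test (0.00858%; 1406 at an unadjusted p below 0.05). For Nr1d1 it was 2.38 ± 0.45 (adjusted p = 0.0859), for Arntl -1.86 ± 0.40 (adjusted p = 0.126) and for Lpl -2.87 ± 0.48 (adjusted p = 0.0669). Without male Mix replicate 1 the number that passed was 94, and without other libraries it was 1 to 7. Ribosomal RNA took 17.5% to 20.6% of the counts in Mix, 17.2% and 20.9% in BPA and 19.2% and 37.1% in vehicle females.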

How the data were processed

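Per the labels' protocols, TRIzol was used to extract total RNA and a QuantSeq 3′ kit to build libraries from messenger RNA. The submitters' processing notes name rn6 as the build and edgeR, bedtools, Bowtie2 and FastQC as tools, without versions. Deposited were raw read counts per gene as whole numbers, with no normalization by the authors. Whether strand was used, and how reads shared by similar or overlapping genes were counted, is not given in the sources used here, so genes such as Cyp4a1 and the globins are uncertain. Of the rows, 316 carry one of 149 repeated symbols and were kept apart.

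Groups follow sex, organ and treatment in the labels. The labels number replicates without stating that they are separate litters, so p values measure the spread between these rats. Rows were filtered with filterByExpr, scaled with TMM and tested in edgeR 4.0.16 under R 4.3.3 with the 3 treatments of the male kidney. The SE is the log2 fold change divided by the square root of F. DESeq2 1.42.0 was an alternative, and limma 3.58.1 was loaded by edgeR. Females, other male organs and the sex difference were fitted in the same way. No 2 libraries were near duplicates. Same-numbered Mix and BPA libraries deviated together (r = 0.236, 0.175 and 0.120 over genes for replicates 1, 2 and 3), so the replicate number was also fitted as a block. Same-numbered pairs with vehicle had r from -0.0472 to 0.151. Mix replicate 3, BPA replicate 3 and vehicle replicates 2 and 3 were not most like libraries of their own number. Scripts were tested on simulated counts. Total counts limit precision to the ranges given, and count floors cover counting error only.

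The comparison, the gene lists and the naming rule were chosen with earlier results of these data known. Named were the 15 higher and 15 lower own genes with the largest changes among those with an adjusted p below 0.05, a mean log2 CPM of at least 2, ranges that do not overlap and a symbol; list members that passed; all measured clock genes; the leading markers of other tissues; and the 5 genes most like Dbp. Other members were named after their values were seen. Of the genes so chosen, not all are reported here. Alternatives were other scaling and filters, the 6 libraries alone, a looser testis rule at 5 CPM and 5 times, ribosomal RNA rows out or their share as a covariate, the block and leaving out each library. Promoters are from RefSeq. Figures were drawn with matplotlib.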

Additional observations from a re-analysis of the deposited data

Results flagged for a closer look

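The log2 fold change of Mix over BPA for Dbp differed between these male and female kidneys. The male minus female difference of the log2 fold change was 2.53 ± 0.25 (edgeR quasi-likelihood interaction test, adjusted p = 0.000177 over 11651 genes). Dbp was higher in 3 of 3 male Mix kidneys than in every male BPA kidney, and lower in 3 of 3 female Mix kidneys than in both female BPA kidneys. The female comparison alone did not pass (edgeR quasi-likelihood test, adjusted p = 0.695). Hour of collection and litter are not labelled, and their part in this difference cannot be told apart from treatment and sex.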

How the results depend on the processing

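The number of the kidney's own genes that differed between Mix and BPA kidneys, 97 with 58 higher and 39 lower, depended strongly on the fit. It was 292 by DESeq2 (168 higher, 124 lower; 704 over all rows, against 322), 18 with the Mix and BPA libraries alone (7 and 11), 8 with testis-enriched rows out before the fit (4 and 4) and 31 with the ribosomal RNA share as a covariate (11 and 20). With DESeq2 size factors it was 100, without the filter 130, under the looser testis rule 91 and without ribosomal RNA rows 87. Fitted with the replicate block 60 genes were higher and 66 lower, which ended the calls of Tmtc4, Cyp4a1, Lpin2 and Wdr33 and of no other gene named in the text. Of the alternatives chosen after seeing the data, the replicate block in the 6 libraries alone gave 115 (49 and 66), and leaving out both BPA libraries with the highest ribosomal RNA shares gave 3 (2 and 1). Leaving out 1 library gave 6 to 446 genes, with 3 to 228 higher and 2 to 218 lower. Fits with fewer libraries have fewer degrees of freedom, and taking out the set-aside rows removes their small p values from the adjustment; the cause of the other moves was not tested. In the female kidney the number was 0 in the block fit, 8 by DESeq2 and 0 to 1 with 1 library left out, and for the difference between the sexes 1 to 94. Of 41 genes that passed and that the naming rule picked, 4 did so in all 9 leave-one-out fits (Nr1d1, Dbp, Gal and Col3a1) and none changed direction in any fit; Bhlhe40, which did not pass, ran from -0.79 to 0.21 over the leave-one-out fits, with 0.21 without BPA replicate 1. Genes of a few counts per library, such as Lect2 and Gal, are limited by depth.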
